A study of Mus musculus with 2 samples.

Results

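The genes described here are the endoplasmic reticulum (ER) chaperones and degradation factors of the ATF6 and XBP1 arms of the unfolded protein response, a set of 10 genes taken by symbol (Hspa5, Hsp90b1, Pdia4, Pdia6, Herpud1, Xbp1, Dnajb9, Hyou1, Creld2 and Calr) out of 26082 genes listed in both libraries. All 10 were found and all 10 averaged at least 1 FPKM. RNA was sequenced from primary mouse fibro-adipogenic progenitors (FAPs), the mesenchymal progenitors of skeletal muscle that can become adipocytes, sorted from hind limb muscle and labelled wild type. By their labels, one library came from cells given TGFBR3 overexpressing plasmids and the other from cells given the vector. Cells of both libraries were labelled as under adipogenic differentiation, and were induced in medium with 20% FBS, dexamethasone at 0.25 μM, insulin at 10 μg/ml and IBMX at 0.5 mM. The number of mice or cultures behind each library and the time of harvest are not given in the sources used here. With 1 library per condition there is no replicate check, so no p-value and no SD is given, and every difference below is one between these libraries.

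The ER folds and modifies proteins that are secreted or inserted into membranes. When unfolded proteins accumulate there, the sensors ATF6, IRE1 and PERK are activated. ATF6 is cut in the Golgi to release a transcription factor, IRE1 splices the mRNA of Xbp1 so that it encodes an active transcription factor, and both factors raise the transcription of ER chaperones, disulfide isomerases and degradation factors through ER stress elements in their promoters. PERK acts through the translation factor eIF2α and favours the transcription factor ATF4, which raises Ddit3 (CHOP). FAPs secrete large amounts of collagen, a cargo that depends on ER folding enzymes.

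The genes were measured as counts and as FPKM, the count scaled by gene length and by library total. The libraries are called here the TGFBR3-labelled library and the control-labelled library. Total counts were 62321027 and 83779203, respectively. The tested genes are the 11213 genes that averaged 1 FPKM or more over both libraries. The targeted gene was examined first. Tgfbr3 had an FPKM of 36.9 in the TGFBR3-labelled library and 35.1 in the other, a log2 ratio of 0.07 (95% CI 0.04 to 0.10). Over the 10626 genes that reached 1 FPKM in each library the median log2 ratio was 0.13, and after centring on it the value for Tgfbr3 was −0.06. By this gene count, the targeted gene therefore did not show the overexpression its label names, and all directions below follow the labels alone. The paper also measured TGFBR3 by RT-PCR in FAPs given the plasmid or the vector, and those values are not used here. Whether transcripts of the plasmid were counted as mouse Tgfbr3 was not tested. Of the 8 FAP markers, 7 averaged 1 FPKM or more, and Lum was near 0 at 0.27 and 0.03 FPKM. Pdgfra was at 30.5 and 32.6 FPKM and Ly6a at 1013 and 706 FPKM in the TGFBR3-labelled and the control-labelled library. The 8 FAP markers summed to 2025 and 2407 FPKM, and 5 of the 7 were below 0 in log2 ratio, beside 36.7% of all tested genes. The collagen genes Col3a1, at 95.8 and 199 FPKM, and Col1a1, at 467 and 870 FPKM, were lower with log2 ratios of −1.05 and −0.89, Gsn was at −0.55 and Cd34 at −0.30, and Dcn was at 0.14. Markers of macrophages summed to 0.78 and 0.49 FPKM, those of endothelial cells to 2.17 and 2.03 FPKM, and those of muscle cells, of which 4 of 7 were found, to 1.17 and 0.84 FPKM. The 6 adipocyte markers summed to 35.7 and 69.9 FPKM. Of the plasma cell and B cell markers, whose cells are rich in ER chaperones, 3 of 7 were found, at 56.3 and 70.2 FPKM in sum, nearly all of it from Sdc1, while Cd79a was at 0.05 and 0.04 FPKM and Jchain was listed at 0. The part of the adipocyte markers and of the lower collagen genes in the results was not tested. In bulk RNA, fewer cells of a type and less RNA per cell cannot be told apart.

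The ER stress elements that define this arm were looked for in the RefSeq promoter windows (GRCm38.p6), which run from 250 bases before to 50 bases after the transcription start. The search covered both strands for the ER stress element ERSE (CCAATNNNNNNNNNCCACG), ERSE-II (ATTGGNCCACG) and the XBP1-type element UPRE (TGACGTGG). A window was present for 9 of the 10 genes, and Hyou1 had none. ERSE was found in 5 of these windows and ERSE-II in 1. Over all 32851 windows, ERSE occurred in 0.119% and ERSE-II in 0.0365%. The genes were chosen as members of the arm that these elements define, so the contrast is a description and not a test. UPRE, which occurred in 0.676% of all windows, was found in no window of these genes, and no element overlapped another. The matches are printed below because they are the sequences through which the arm is known to respond, 5′ to 3′ on the strand of the gene, with the element in capitals and 5 bases on each side.
Hspa5, chr2:34772020-34772048, plus strand: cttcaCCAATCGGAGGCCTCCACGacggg
Hsp90b1, distal, chr10:86705633-86705661, minus strand: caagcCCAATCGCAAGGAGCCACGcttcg
Hsp90b1, proximal, chr10:86705528-86705556, minus strand: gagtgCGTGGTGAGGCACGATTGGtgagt
Pdia6, chr12:17266486-17266514, plus strand: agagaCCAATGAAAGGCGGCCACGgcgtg
Creld2, chr15:88819515-88819543, plus strand: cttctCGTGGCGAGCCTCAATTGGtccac
Calr, chr8:84847070-84847098, minus strand: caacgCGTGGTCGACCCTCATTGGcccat
Herpud1, chr8:94386372-94386392, plus strand: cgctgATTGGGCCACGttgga
In Creld2, Calr and the proximal match of Hsp90b1 the element lies on the strand opposite to the gene, so that the capitals read as its reverse complement. With the RefSeq start counted as base 0, the element ran from −65 to −47 in Hspa5, from −98 to −80 in Pdia6, from −52 to −42 in Herpud1, from −126 to −108 in Creld2 and from −162 to −144 in Calr. Hsp90b1 held 2 matches, from −212 to −194 and from −107 to −89. The Hspa5 match lies upstream of the RefSeq start but inside an exon that GENCODE M21 annotates for a longer transcript, and the other matches lie outside the annotated exons of their genes. A match describes these letters only. Pdia4, Xbp1 and Dnajb9 held no match in these windows, which says nothing about elements elsewhere.

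**Figure D1:**
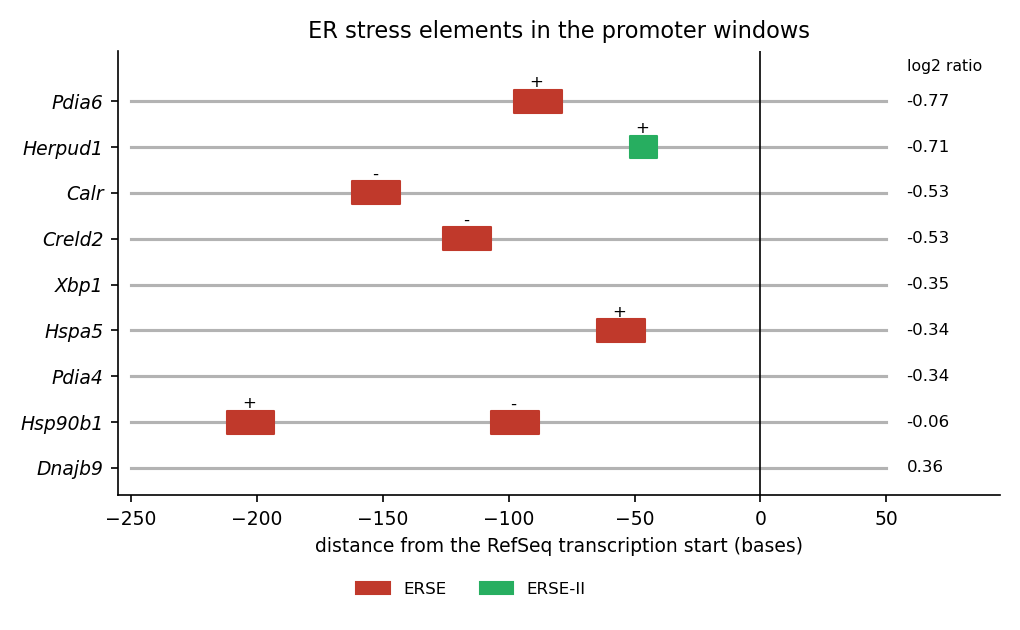
ER stress elements in the promoter windows of the 9 genes with a window. The x axis gives the distance from the RefSeq transcription start in bases, each line is 1 window, boxes are matches with + or - for the strand relative to the gene, and the log2 ratio of the gene stands on the right; the 6 genes with a match had ratios from −0.77 to −0.06.

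The arm as a whole took a smaller share of the TGFBR3-labelled library. The counts of the 10 genes summed to 278215 there and to 502867 in the control-labelled library, or 0.446% (95% exact binomial interval 0.445 to 0.448) and 0.600% (0.599 to 0.602) of all counts. On the FPKM scale the sums were 1232 and 1657. The log2 ratio of (FPKM + 1), with the TGFBR3-labelled library over the control-labelled one, was below 0 for 9 of the 10 genes, beside 36.7% of all tested genes. The median ratio of the 10 genes was −0.35, beside 0.14 for the tested genes. None of the 10 genes was 2-fold higher or 2-fold lower, beside 3.14% and 1.03% of all genes. At 1.5-fold, 2 genes, Pdia6 and Herpud1, were lower and none was higher, beside 4.91% lower and 13.3% higher among all genes. The differences were therefore modest in size, and they pointed one way in all genes but Dnajb9.

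**Figure D2:**
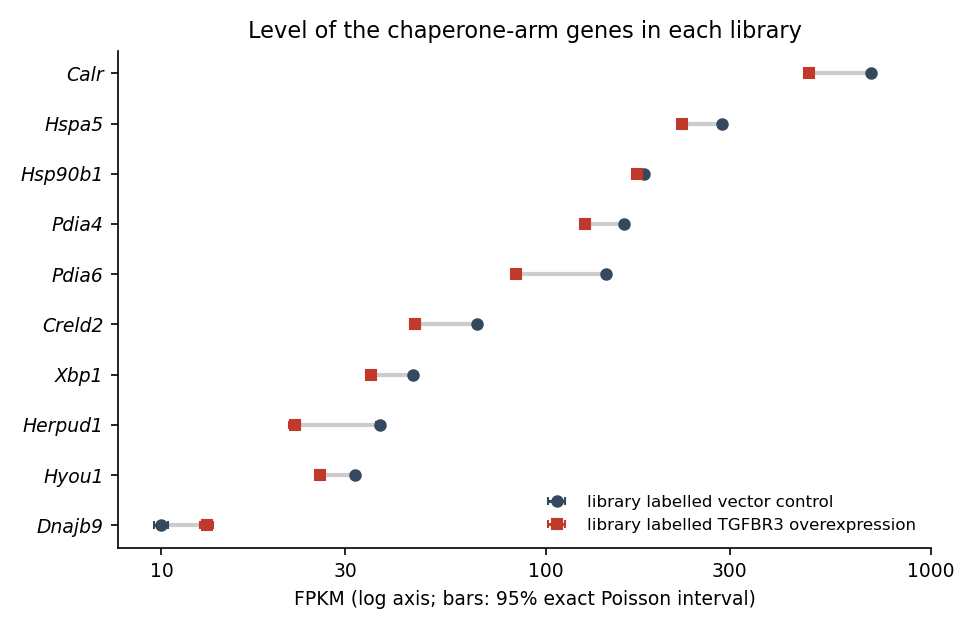
FPKM of the 10 genes in each library on a log axis, with the TGFBR3-labelled library as squares, the control-labelled library as circles and bars for the 95% exact Poisson interval of the count. The square lies to the left of the circle for every gene but Dnajb9, from Calr at 482 and 698 FPKM to Dnajb9 at 13.1 and 10.0 FPKM.

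FPKM is scaled by gene length, so the order of levels below rests on the length used for each gene. Calr was the most abundant of the set and ranked 53 among all genes in the control-labelled library, followed by Hspa5 at rank 153, Hsp90b1 at 255, Pdia4 at 296, Pdia6 at 328, Creld2 at 727, Xbp1 at 1078, Herpud1 at 1322, Hyou1 at 1523 and Dnajb9 at 4045. The order was the same in the TGFBR3-labelled library except that Hyou1 stood above Herpud1. The counting intervals of neighbours in this order did not overlap in either library, but they do not cover the choice of length. By counts, Pdia6 stood above Pdia4 in the control-labelled library, at 49575 and 35402, and Hyou1 above Xbp1, at 21295 and 13493. The set thus spans genes that are among the most abundant mRNAs of these cells and genes of moderate level.

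Of the chaperones, Hspa5 encodes BiP, the HSP70 of the ER that holds unfolded chains and keeps the sensors inactive. Hspa5 (ENSMUSG00000026864, mm10 chr2:34771970-34777547, plus strand) had an FPKM of 225 in the TGFBR3-labelled library and 286 in the control-labelled library, from 64621 and 111719 counts. This was a log2 ratio of −0.34 (95% CI −0.36 to −0.33), a level of 78.8% of the control-labelled library. Hyou1 (ENSMUSG00000032115, chr9:44379490-44392369, plus strand) encodes GRP170, a large HSP70-related protein that releases ADP from BiP. Its FPKM was 25.8 and 31.9, from 12681 and 21295 counts. Its log2 ratio of −0.29 (95% CI −0.32 to −0.26) lay just above the interval of Hspa5. With the GC trend removed Hyou1 was at −0.31 and Hspa5 at −0.61.

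Hsp90b1 encodes GRP94, the HSP90 of the ER, whose clients include integrins and Toll-like receptors. Hsp90b1 (ENSMUSG00000020048, chr10:86690209-86705509, minus strand) was nearly level, with an FPKM of 173 and 180, from 47245 and 67025 counts, and a log2 ratio of −0.06 (95% CI −0.08 to −0.04). Its level was 96.0% of the control-labelled library, the nearest to parity of the 10 genes. Its exons overlap Gm15344 and the miRNA gene Gm25745 on the same strand, and a pseudogene on the opposite strand, 1810014B01Rik. Of its 31-base words, 4.09% occur in transcripts of other genes, most of all Gm25745, so a small part of its counts may depend on how reads were assigned.

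Calr encodes calreticulin, the soluble lectin chaperone that binds glycoproteins with trimmed glycans and buffers ER calcium. Calr (ENSMUSG00000003814, chr8:84841850-84846934, minus strand) had an FPKM of 482 and 698, from 94260 and 185678 counts, which gave a log2 ratio of −0.53 (95% CI −0.54 to −0.52), or 69.1% of the control-labelled library. Calr alone carried 185678 of the 502867 counts of the set in the control-labelled library, so the summed share of the set rests heavily on it. Canx, its membrane-bound relative calnexin, went the other way, with 111 and 84.2 FPKM and a log2 ratio of 0.40. The Calr to Canx ratio was 4.34 in the TGFBR3-labelled library and 8.28 in the other, a log2 difference of −0.93 (95% CI −0.96 to −0.91), and such a ratio within a library does not depend on the scaling between libraries. Canx was chosen for this comparison after its values were seen, and with the GC trend removed its own log2 ratio was −0.05.

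The disulfide isomerases form and reshuffle the disulfide bonds of secreted proteins. Pdia6 (ENSMUSG00000020571, chr12:17266545-17284770, plus strand), which also binds IRE1 and BiP, had the lowest ratio of the set. Its FPKM was 83.4 in the TGFBR3-labelled library and 143 in the control-labelled library, from 21186 and 49575 counts, which gave a log2 ratio of −0.77 (95% CI −0.80 to −0.75), or 58.2% of the control-labelled library, and 2.32% of all genes had a lower ratio. Pdia4 (ENSMUSG00000025823, chr6:47796141-47813430, minus strand), known as ERp72, differed less, with 126 and 160 FPKM, from 20501 and 35402 counts, and a log2 ratio of −0.34 (95% CI −0.36 to −0.32). The Pdia6 to Pdia4 ratio was accordingly 0.662 and 0.897. Creld2 (ENSMUSG00000023272, chr15:88819646-88826683, plus strand), an ER stress-induced protein with isomerase activity, had 45.6 and 66.2 FPKM, from 4226 and 8354 counts. Its log2 ratio of −0.53 (95% CI −0.58 to −0.48) lay within counting error of that of Calr.

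The degradation genes of the set lay at opposite ends of the order, although with the GC trend removed both were below 0, Herpud1 at −0.79 and Dnajb9 at −0.08. Herpud1 encodes HERP, a membrane protein that organises the HRD1 complex for the removal of misfolded proteins. Herpud1 (ENSMUSG00000031770, chr8:94386438-94395377, plus strand) had an FPKM of 22.2 and 37.0, from 3513 and 7977 counts, and a log2 ratio of −0.71 (95% CI −0.77 to −0.66), the second lowest of the set. Dnajb9 encodes ERdj4, a J-domain cochaperone of BiP that helps degradation and holds IRE1 in its inactive form. Dnajb9 (ENSMUSG00000014905, chr12:44205559-44210326, minus strand) was the only gene of the set with a higher level in the TGFBR3-labelled library, with 13.1 against 9.97 FPKM, from 2266 and 2349 counts, and a log2 ratio of 0.36 (95% CI 0.29 to 0.44). The Herpud1 to Dnajb9 ratio was 1.69 in that library and 3.71 in the other, a log2 difference of −1.13 (95% CI −1.23 to −1.03). For Dnajb9, 10.8% of the 31-base words occur in transcripts of other genes, chiefly Gm6568, so its count is less certain than those of the other members.

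Xbp1 is both a transcription factor of this arm and one of its targets. Xbp1 (ENSMUSG00000020484, chr11:5520659-5525893, plus strand) had an FPKM of 35.0 in the TGFBR3-labelled library and 45.0 in the control-labelled library, from 7716 and 13493 counts, and a log2 ratio of −0.35 (95% CI −0.39 to −0.31). The counts are per gene and cannot separate spliced from unspliced Xbp1 mRNA, so they do not measure the activity of IRE1. In the order of the ratios, the intervals of Herpud1 and Pdia6, of Creld2 and Calr, and of the neighbours Xbp1, Hspa5, Pdia4 and Hyou1 overlapped, while Hsp90b1 and Dnajb9 each stood apart from their neighbours. In the main measure the 2 lowest genes were thus followed by 2 near −0.53 and 4 from −0.35 to −0.29. Hsp90b1 lay near 0 and Dnajb9 above 0. This grouping follows overlaps of neighbours only, and the intervals of Hyou1 and Hspa5 did not overlap. It did not hold with the GC trend removed, where Hsp90b1 was at −0.50, Creld2 at −0.53, Pdia4 at −0.54 and Hspa5 at −0.61.

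**Figure D3:**
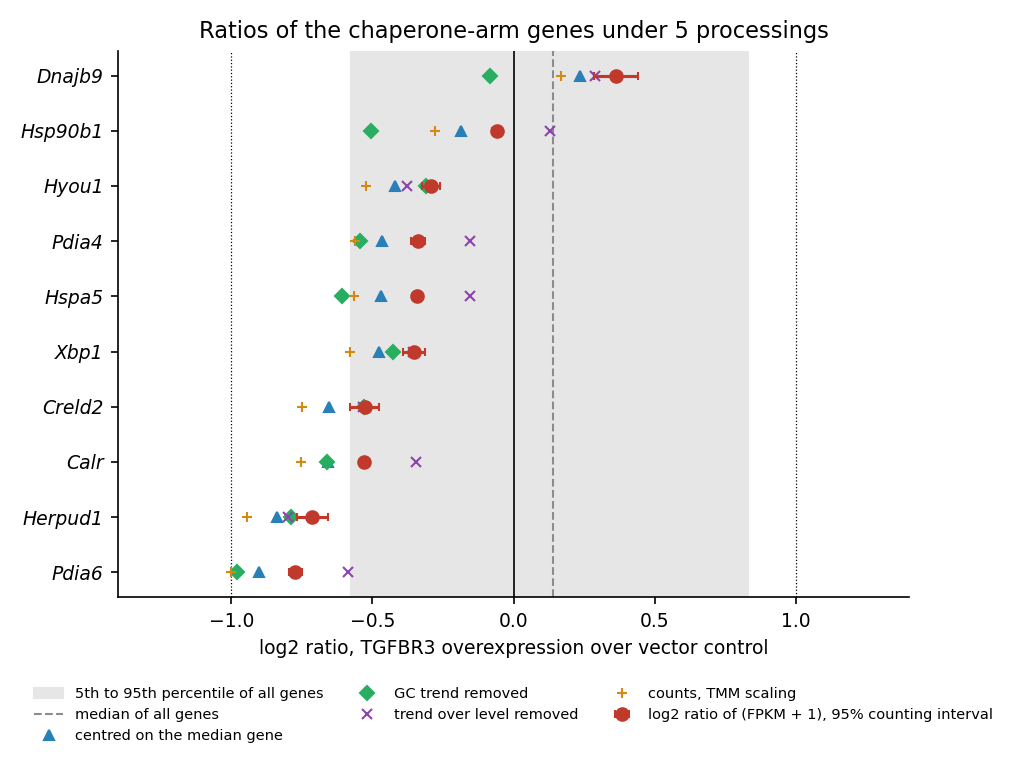
Log2 ratio of each gene, TGFBR3-labelled library over control-labelled library, with the 95% counting interval, and the same value under 4 other processings. The grey band runs from the 5th to the 95th percentile of all genes, −0.58 to 0.83; only Pdia6 and Herpud1 lie left of it in the main measure, Dnajb9 turns negative with the GC trend removed and Hsp90b1 positive with the trend over level removed.

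Some properties of the genes moved with the ratio across the whole table. The median log2 ratio of all genes fell from 0.46 in the lowest of 20 bins of GC content to −0.26 in the highest, and from 0.18 in the lowest bin of mean FPKM to −0.19 in the highest. Hsp90b1 and Dnajb9, the members with the highest ratios, also had the lowest GC content of the set, at 42.9% and 41.8%. With the GC trend removed, all 10 genes were below 0, beside 5600 of the 11207 tested genes with a GC value. The median of the 10 genes was −0.54, with Hsp90b1 at −0.50 and Dnajb9 at −0.08. Hspa5, Hsp90b1, Pdia4, Pdia6 and Calr were in the highest bin of level. With the trend over level removed, 8 of 10 genes were below 0, beside 5600 of the 11213 tested genes. The median of the 10 genes was −0.35. Hsp90b1 was at 0.13, Hspa5 at −0.16, Pdia4 at −0.15, Calr at −0.34 and Pdia6 at −0.59.

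**Figure D4:**
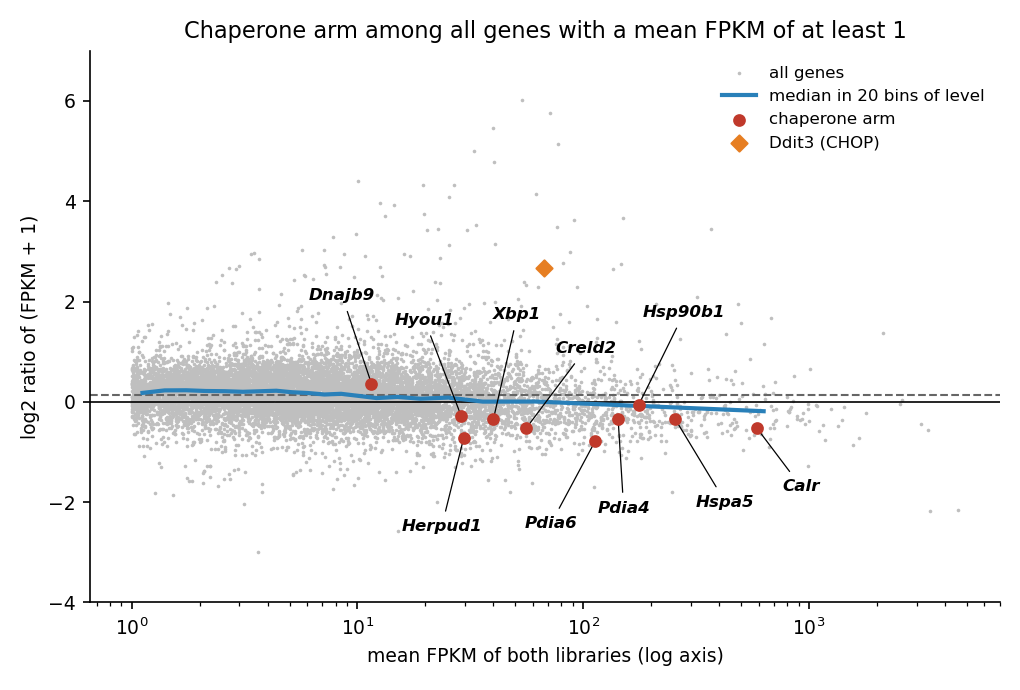
Mean FPKM of both libraries on a log axis against the log2 ratio of (FPKM + 1) for all 11213 tested genes (grey), the 10 chaperone-arm genes (red) and Ddit3 (orange). The dashed line is the median of all genes, 0.14, and the blue line joins the medians of 20 bins of level, which end at −0.19; 9 red points lie below 0.

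The 6 genes with an ER stress element printed above were all below 0, with a median of −0.53 and a range from −0.77 to −0.06. The 3 whose window held no match, Pdia4, Xbp1 and Dnajb9, had a median of −0.34. Outside the set, 14 other tested genes held ERSE or ERSE-II in their window. Of these, 7 were below 0, the median was −0.01, the range was −0.55 to 0.73, and none was past 2-fold. Among all 8233 tested genes with a window, 37.0% were below 0 and the median was 0.13. Genes outside the set that hold the element thus lay on both sides of 0.

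The neighbouring genes of the pathway were described from lists of genes by ER function. Of all tested genes, 36.7% were below 0, 3.14% were 2-fold higher and 1.03% were 2-fold lower. Of 25 tested other chaperones and folding enzymes of the ER, 17 were below 0, with a median of −0.22 and none past 2-fold. Manf, a secreted ER stress protein, had the lowest ratio at −0.74 with 30.4 and 51.4 FPKM, followed by the isomerase Pdia5 at −0.71 with 18.4 and 30.8 FPKM. Of 12 genes for collagen folding and modification, 8 were below 0, with a median of −0.29. The largest differences there were −0.61 for Crtap, part of the prolyl 3-hydroxylase complex, and 0.45 for the lysyl hydroxylase Plod2, which was at 0.00 with the GC trend removed. Of 17 genes of transport between the ER and the Golgi, 10 were below 0, with a median of −0.17. Kdelr1, a receptor that returns ER chaperones from the Golgi, was at −0.55 with 80.2 and 118 FPKM. The coat GTPase Sar1b was at 0.58, and at 0.17 with the GC trend removed. Of 12 genes of ER calcium handling, 8 were below 0, with a median of −0.10, and the calcium-binding reticulocalbins Rcn2 and Rcn3 were lowest at −0.88 and −0.78. None of the genes in these 4 lists was past 2-fold in the main measure, although Rcn2 was at −1.01 after centring, −1.13 with TMM-scaled CPM and −1.22 with the GC trend removed.

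The lists of ER degradation and ER import had medians near 0. Of 24 genes of ER-associated degradation, the pathway that Herpud1 and Dnajb9 serve, 10, or 41.7%, were below 0 and the median was 0.04. This share is near the 36.7% of all tested genes. In the main measure the largest differences were 0.51 for Ubxn4 and 0.44 for Ufd1, both partners of the p97 ATPase. With the GC trend removed both were at 0.17 and no longer the largest in size. Of 26 genes of protein import, signal cleavage and glycosylation, 13, or 50%, were below 0 and the median was 0.00. The signal recognition particle subunits Srp68 and Srp72 were highest at 0.77 and 0.72. With the GC trend removed they were at 0.77 and 0.38. No tested gene of either list was past 2-fold in the main measure. Both medians were below 0 after centring on the median gene, at −0.09 and −0.13, with TMM-scaled CPM, at −0.18 and −0.21, and with the GC trend removed, at −0.12 and −0.25.

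The genes that control the response gave a mixed picture. Atf6, the sensor of this arm, had 5.66 FPKM in the TGFBR3-labelled library and 3.46 in the control-labelled library, a log2 ratio of 0.58 (95% CI 0.52 to 0.64). Its value was 0.24 with the GC trend, 0.32 with the exon length trend and 0.36 with the trend over level removed. Its paralog Atf6b was lower, with 20.3 and 25.7 FPKM and a ratio of −0.33, which was −0.07 with the GC trend removed. Mbtps1 and Mbtps2, the Golgi proteases that cut ATF6, were at −0.23 and 0.40, the latter −0.05 with the GC trend removed. Ern1, which encodes IRE1α, had 4.26 and 3.39 FPKM and a ratio of 0.26, which was −0.01 with the exon length trend removed. Eif2ak3, which encodes PERK, had 3.33 and 6.30 FPKM and a ratio of −0.75 (95% CI −0.83 to −0.68), the lowest of the 9 genes, and it was past 2-fold with TMM-scaled CPM, at −1.10. The related ER transcription factors Creb3, Creb3l1 and Creb3l2 were at −0.06, −0.02 and −0.14, and Creb3l1 was at 0.10 with the GC trend removed. Within the libraries, the Xbp1 to Atf6 ratio was 6.19 against 13.0, a log2 difference of −1.07 (95% CI −1.15 to −0.99), with no trend removed. Of 6 RNAs known as substrates of IRE1 cleavage in fibroblasts, all were below 0, beside 36.7% of all tested genes. Their median was −0.17, and the interval of Hgsnat, at −0.01 (95% CI −0.07 to 0.04), included 0. With the trend over level removed 4 of the 6 were below 0, beside 5600 of the 11213 tested genes, and Pdgfrb and Sparc were at 0.10 and 0.05. Col6a1, a collagen chain, was the only one past 2-fold, with 29.2 and 75.2 FPKM and a ratio of −1.33.

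In the PERK, ATF4 and CHOP arm, 2-fold differences in the main measure were limited to 2 genes. Ddit3 had 116 FPKM in the TGFBR3-labelled library and 17.5 in the control-labelled library, from 13475 and 2775 counts, a log2 ratio of 2.66 (95% CI 2.60 to 2.72), whereas Atf4 was level at 62.7 and 61.8 FPKM. Of the 18 tested genes of that arm, 2 were 2-fold higher, Ddit3 and the stress-induced Nupr1 at 1.23, beside 3.14% of all tested genes. The median was 0.31, and 5 of the 18, or 27.8%, were below 0, a share near the 36.7% of all tested genes. The lowest were the transcription factors Cebpb at −0.83, or −1.06 with TMM-scaled CPM, and Atf5 at −0.49, followed by Ddit4 at −0.48 and Aldh18a1 at −0.29, named after their values were seen. Hspa5 exceeded Ddit3 by 16.3 to 1 in the control-labelled library and by 1.94 to 1 in the other, a log2 difference of −3.07 (95% CI −3.13 to −3.01).

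**Figure D5:**
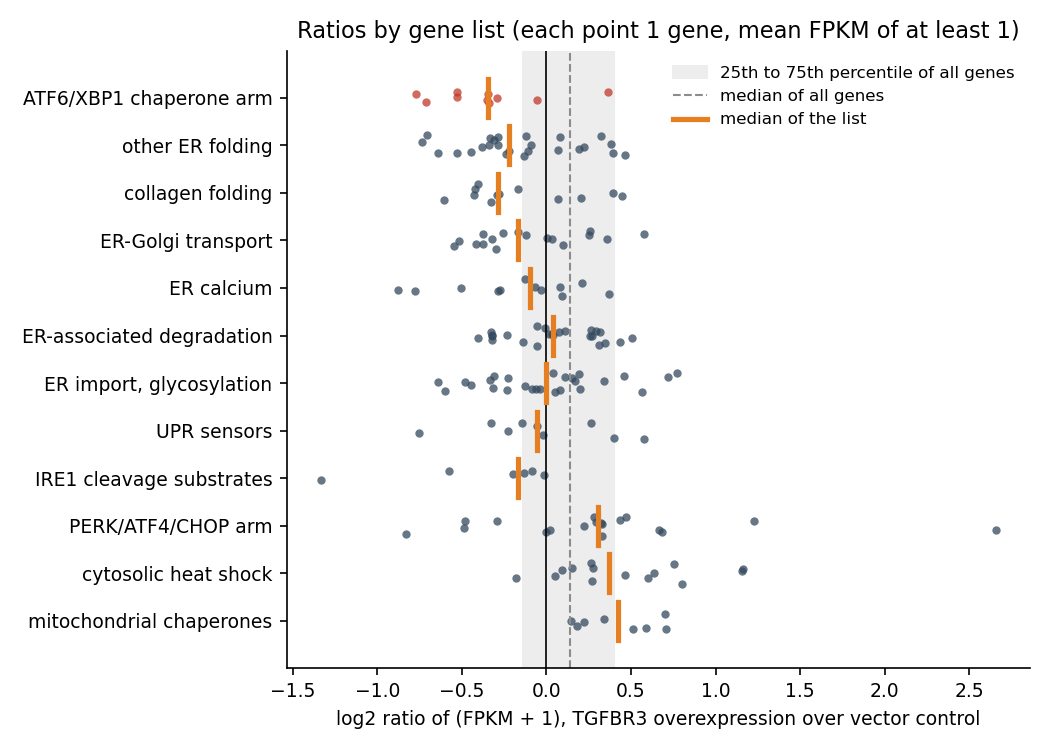
Log2 ratio of (FPKM + 1) by gene list, each point 1 tested gene, the orange bar the median of the list, the dashed line the median of all genes and the grey band their 25th to 75th percentile, −0.14 to 0.40. The chaperone arm has the lowest median of the lists, −0.35, and the mitochondrial and cytosolic chaperones the highest, 0.43 and 0.37. The order of mitochondrial and cytosolic lists turns with TMM-scaled CPM, at 0.23 and 0.25, and with the GC trend removed, at 0.31 and 0.36. It also turns with CPM, at 0.43 and 0.45, and with a pseudocount of 0.1 or none, at 0.45 and 0.47 in each case.

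Chaperones of other compartments stood higher than those of the ER. Of all 11213 tested genes, 7079 were above 0, the median was 0.14 and 3.14% were 2-fold higher, so a ratio above 0 was common. Of 14 cytosolic heat shock genes, 13 were above 0 and the median was 0.37. With TMM-scaled CPM, 4 of the 14 were below 0, beside 6085 of all tested genes. In this list 2 genes were 2-fold higher, Hsp90aa1 at 1.16, with 105 and 46.4 FPKM, and the cochaperone Dnajb4 at 1.16, with 7.19 and 2.66 FPKM. With TMM scaling of the counts Hsp90aa1 was at 0.95, and with the GC trend removed the 2 genes were at 0.82 and 0.76. All 8 mitochondrial chaperones and proteases were above 0 in the main measure, with a median of 0.43. Of these, 2 were below 0 with TMM-scaled CPM and 1 with the GC trend removed. The highest were Hspd1, the HSP60 of mitochondria, at 0.71 and Hspa9, mortalin, at 0.70, and none was past 2-fold. With the GC trend removed Hspd1 was at 0.51 and Hspa9 at 0.30. Because the HSP70 and HSP90 families have a member in each compartment, they were compared within each library, and those members that fell outside the named lists of extremes were chosen after their values were seen. The ratio of Hspa5 to the cytosolic Hspa8 was 0.450 in the TGFBR3-labelled library and 0.591 in the control-labelled library, a log2 difference of −0.39 (95% CI −0.41 to −0.38). The ratio of Hspa5 to Hspa9 was 2.08 and 4.32, a log2 difference of −1.05 (95% CI −1.08 to −1.03). Hsp90b1 stood 1.65 to 1 to the cytosolic Hsp90aa1 in the TGFBR3-labelled library and 3.87 to 1 in the other, a log2 difference of −1.23 (95% CI −1.27 to −1.20). Against the constitutive Hsp90ab1 its log2 difference was −0.21 (95% CI −0.23 to −0.19), and against the mitochondrial Trap1 it was −0.41 (95% CI −0.46 to −0.36). In each of these pairs the ratio of the ER member to its partner was smaller in the TGFBR3-labelled library than in the control-labelled one. The size of the difference depended on the partner.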

How the data were processed

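RNA of 2 libraries of primary mouse FAPs was sequenced with paired reads of 150 nt. The authors deposited raw counts per gene and FPKM values, the latter scaled by gene length and library total. The paper names STAR and FeatureCounts on mm10, whereas the submitters' processing notes list cutadapt 1.9, HISAT2 2.2.1, StringTie 2.1.6, DESeq2 and edgeR, so which aligner made the deposited files is not settled.

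The measure was the log2 ratio of (FPKM + 1), with a pseudocount of 1, which understates changes of low genes. Percentages and list counts are over the 11213 genes averaging 1 FPKM or more, and the threshold was 2-fold. Ratios have Clopper-Pearson 95% intervals (exact) for how a gene's counts split between libraries, and levels have exact Poisson intervals. They cover counting error only, and none of the difference between cultures. Total counts were 62321027 and 83779203, so the members' intervals are narrow. No count model was run with 1 library per group.

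The members and lists were chosen with earlier results of these data known. Of 227 list entries, 7 were not analysed here, and 2 were matched by an older symbol. The named genes were the members, Tgfbr3, all genes of the sensor list, Atf4 and Ddit3, and from each other pathway list the genes past 2-fold (at most 4) or otherwise the 2 with the largest ratios in size. Alternatives were a pseudocount of 0.1 and none, centring on the median gene, rescaling without the 50 highest genes, CPM, CPM with TMM scaling (edgeR 4.0.16), a 1.5-fold threshold, no filter on low values, and removal of the trends over GC content, exon length and, chosen after seeing the data, level, each as medians of 20 bins. Positions came from GENCODE M21 on mm10, and promoter sequences from RefSeq. The calculation of intervals was tested on simulated data.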

Additional observations from a re-analysis of the deposited data

How the results depend on the processing

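The median log2 ratio of the 10 chaperone-arm genes, −0.35, was −0.47 after centring on the median gene, −0.57 with TMM-scaled CPM, −0.54 with the GC trend removed and −0.47 with the exon length trend removed. TMM scaling put the median of all tested genes at −0.05. The other alternatives gave values from −0.37 to −0.35. The number of genes below 0 was 9 under all alternatives except removal of the GC trend, which gave 10, and of the trend over level, which gave 8. Among the 11213 tested genes, 4115 were below 0 in the main measure. This rose to 5459 after centring, to 6085 with TMM-scaled CPM and to 5600 with any trend removed. Removal of a trend fixes that number in advance. The contrast of this count with all genes was thus smaller under these alternatives. No gene was 2-fold lower except Pdia6 with TMM-scaled CPM, just past the threshold, which made the count 1, and a 1.5-fold threshold made it 2. Of 90 member ratios under the 9 alternatives that give each gene a ratio, 45 moved by more than their counting error and 2 reversed. Dnajb9 changed sign with the GC trend removed, to −0.084, and Hsp90b1 with the trend over level removed, to 0.13. The median of the ER-associated degradation list changed sign after centring, to −0.090, and with the GC trend removed, to −0.12. The median of the protein import list was −0.13 after centring, −0.25 with the GC trend removed and −0.051 with the trend over level removed. Without the filter on low values, 1.60% of genes were 2-fold higher and 0.536% lower, since more genes near 0 entered. The cause of the other shifts was not tested. Leaving out a replicate was not possible with 1 library per group. Depth does not limit the members, the least of which had 2266 counts, while the spread between cultures is unknown. No paired analysis was possible because the groups hold 1 library each.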
